A study of Mus musculus with 6 samples.

Results

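The autophagy machinery genes were chosen by name, with earlier results of these data known. They are 43 genes whose proteins start, extend, load and close the autophagosome. Of these, 41 were measured by a probe set with exactly 1 gene symbol, out of 22180 genes tested. Optn had no such probe set in the annotation used, and Bnip3l shared its probe set with a second symbol, so neither is reported. RNA came from 6 wells of cultured lung fibroblasts, in which leukocyte markers were bright too, as described below. The cells were enriched from digested lungs of male wild-type C57BL/6 mice, 8 weeks old, with 3 passages as the upper limit, and freshly isolated cells were divided over the wells. Cells in 3 wells received vehicle and those in 3 wells 5 µM purmorphamine (5um in the labels), each for 24 h, and 1 Affymetrix array was run per well. Purmorphamine activates Hedgehog signalling by binding Smoothened, upstream of the Gli transcription factors. The labels do not say from how many mice or pools the wells came, so the p-values rest on well-to-well spread alone, part or all of which may be technical.

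Autophagy encloses cytoplasm, protein aggregates or organelles in a membrane vesicle, the autophagosome, which then fuses with a lysosome. The ULK1 kinase complex and the VPS34 lipid kinase complex start it, lipid transfer proteins extend the membrane, and conjugation enzymes attach small ubiquitin-like ATG8 proteins (the LC3 and GABARAP families) to that membrane. Receptors bind both cargo and ATG8 proteins, and tethering factors bring the finished vesicle to the lysosome. In lung fibroblasts the pathway is known for turnover of damaged mitochondria and aggregates and for its activity under nutrient shortage, which mTORC1 and AMPK report to the ULK1 complex. Array values are amounts of RNA and do not measure the flow of material through autophagosomes.

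The comparison of purmorphamine with vehicle showed small rises of part of this machinery, the 5 measured receptor genes of the member list among them. Differences are purmorphamine minus vehicle in log2 units, fitted with limma over all genes, and a gene is said to have risen or fallen at a Benjamini-Hochberg adjusted p under 0.05. Of the 41 measured genes 15 rose (36.6%) and 0 fell by limma (1 downward at an unadjusted p under 0.05), against 7.18% and 7.16% of all genes. The members were chosen with earlier results of these data known, so these shares describe the list and are no test of it. All members were brighter than the array medians, and with the dimmest genes left out 15.2% of genes rose, beside 21 of the members. By class of the member list, 5 of 5 measured receptor genes and 2 of 2 fusion genes (Tecpr1 and Epg5) rose, beside 3 of 6 genes of membrane supply, 3 of 16 of conjugation and 2 of 12 of initiation. Outside the member list, further receptors were mixed and 1 of 15 further fusion genes rose, as described below. In size, 14 of the 15 rises were below 1.5-fold, and the largest, of the receptor gene Sqstm1, was 1.61-fold. The median difference of the 41 genes was 0.15, and that of all 22180 genes was -0.01. In all 15 raised genes each purmorphamine array lay above each vehicle array. The same held for 10 of the 26 genes that did not pass, so that 25 of 41 genes had all purmorphamine arrays on top, against 17.1% of all genes. That share includes dim genes, and none for genes as bright as the members is given here. Uvrag alone had all purmorphamine arrays below, which held for 17.1% of all genes.

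**Figure D1:**
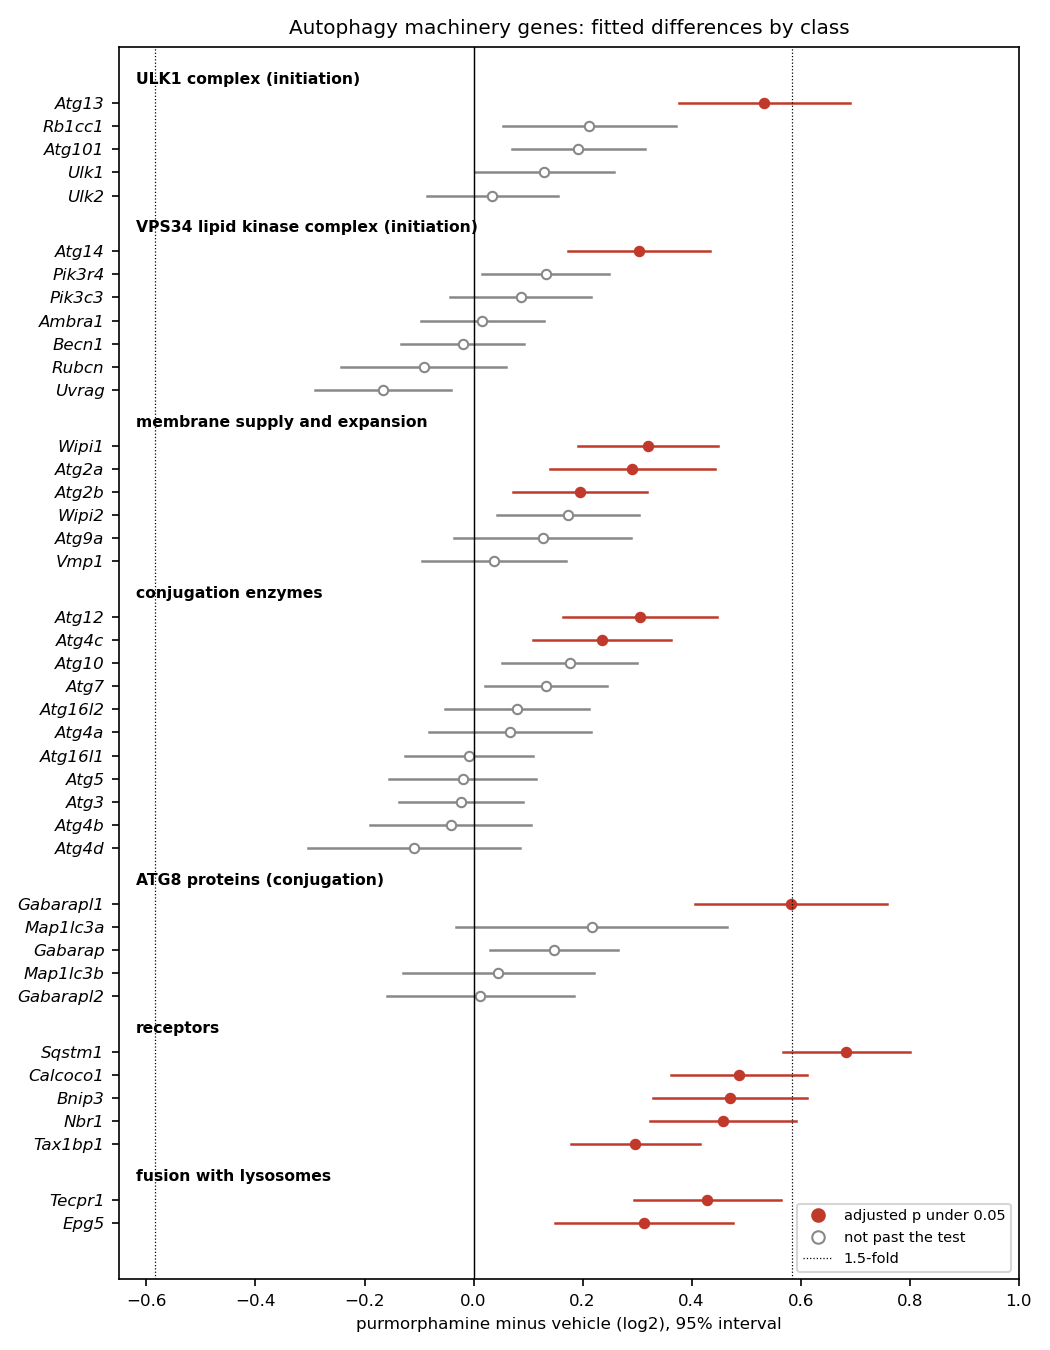
Fitted differences (log2, x axis) of the 41 measured genes by class, with 95% intervals; filled red points are genes with an adjusted p under 0.05. All 15 filled points lie right of 0, and the intervals of all 26 open points lie between the dotted lines of a 1.5-fold change.

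Of the 26 genes that did not pass, 8 had an unadjusted p under 0.05 with a positive difference and 1, Uvrag, with a negative one. No share of all genes at an unadjusted p under 0.05 is given here, so such counts have no background beside them. The 95% intervals of the 26 genes, not adjusted for the number of genes, reached from -0.30 at the lowest to 0.47 at the highest. All 26 therefore lay inside a 1.5-fold change in either direction, which is 0.58 on this scale. The genes next to the threshold were Atg2b, just inside it at an adjusted p of 0.0488, and Atg101, just outside it at 0.0502. All 41 genes had mean signals between 7.31 and 12.60, above the medians of the arrays (6.34 to 6.39).

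Cultures and arrays set the frame for these values. Fibroblast markers had vehicle means from 6.01 (Lum, below the array medians) to 13.72 (Vim), with Col1a1 at 12.77. The leukocyte markers Lyz2 (13.96), Cd68 (13.21), Fcer1g (13.08) and Marco (12.91) were bright as well, where the upper quartile of an array was 8.20 to 8.24. All 4 were above Col1a1, and Lyz2 was above every fibroblast marker. In RNA of whole cultures the differences of the autophagy genes cannot be assigned to fibroblasts or to another cell type. Of 16 leukocyte markers 1 rose, Itgax (0.31), and 7 fell. Those were Itgam (-1.46), Coro1a (-0.71), Csf1r (-0.63), Mrc1 (-0.62), Cx3cr1 (-0.55), Adgre1 (-0.37) and Cd52 (-0.28). The other 8 did not pass, at -0.17 (Fcer1g) to 0.20 (Marco), with Lyz2 at 0.05, Cd68 at 0.13 and Cd14 at 0.19. The summed linear signal of the 16 markers, to which bright genes add most, was 69037 to 69551 with vehicle and 63605 to 65728 with purmorphamine. Of 15 fibroblast markers 9 rose and 3 fell, with sums of 45342 to 46686 and 49329 to 51053. Of 12 epithelial and endothelial markers 4 rose and 0 fell by limma (1 downward at an unadjusted p under 0.05), with sums of 6742 to 6964 and 7452 to 7591. The rises were those of Vwf (0.50), Cdh5 (0.34) and Pecam1 (0.30) of endothelium and of Epcam (0.50) of epithelium. The epithelial markers Cdh1 (-0.04), Krt8 (-0.01) and Krt18 (-0.02) had overlapping groups. Vehicle means were above the upper quartile for Krt18 (10.61), Cdh1 (10.15), Krt8 (10.03) and Epcam (8.41) of epithelium. The same held for Cdh5 (10.35), Pecam1 (8.85), Kdr (8.61) and Vwf (8.33) of endothelium, while Tek was at 6.57. The airway and alveolar markers Scgb1a1, Sftpb and Sftpc were below the array medians or near them, at 3.98, 4.64 and 4.11 (Scgb1a1), 6.52, 6.23 and 6.30 (Sftpb) and 6.36, 6.52 and 6.31 (Sftpc) with vehicle and at means of 4.19, 6.25 and 6.15 with purmorphamine. The 3 sums thus moved with the treatment, while single markers of each list went in both directions. The part of these shifts in the results was not tested. In whole cultures, fewer cells of a type and less RNA per cell cannot be told apart. None of 3 Hedgehog target genes was called, also at an unadjusted p under 0.05, with differences of -0.12 for Gli1, 0.17 for Ptch1 and 0.06 for Hhip (limma adjusted p from 0.188 to 0.647). Gli1 and Hhip were dim, with vehicle means of 6.12 and 5.28 below the array medians, and Ptch1 was at 8.18. On the second principal component (13.2% of the variance) the arrays numbered 3 of both groups stood apart at -13.55 and -9.56, with the others between 3.06 and 6.88. Without these 2 arrays 6 of the 15 genes were still called (Atg13, Sqstm1, Nbr1, Calcoco1, Bnip3 and Tecpr1), where 1.98% of all genes rose. The 15 differences were then 0.22 to 0.70.

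The 5 measured receptors among the members rose by 0.30 to 0.68, while receptors on the list of other pathway genes, described further on, were mixed and 1 of them, Calcoco2, fell. Sqstm1 encodes p62, which gathers ubiquitin-tagged proteins and links them to LC3. Its log2 signal was 11.96, 11.98 and 11.95 on the 3 vehicle arrays and 12.64, 12.69 and 12.61 on the 3 purmorphamine arrays. The groups lay far apart beside SDs of 0.01 and 0.04, and the rise was 0.68 (SE 0.05, n = 3 per group, limma adjusted p = 3.89e-04). Nbr1, a receptor built like p62 that also takes up peroxisomes, read 10.11, 10.21 and 10.18 with vehicle and 10.61, 10.59 and 10.69 with purmorphamine. It rose by 0.46 (SE 0.06, adjusted p = 0.00268). All 3 treated wells of Nbr1 were higher than any control well.

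Calcoco1, a receptor for endoplasmic reticulum and Golgi membranes, had vehicle values of 9.72, 9.73 and 9.70 and purmorphamine values of 10.24, 10.23 and 10.14, with no overlap. It rose by 0.49 (adjusted p = 0.00163). Tax1bp1, a related coiled-coil receptor for ubiquitin-tagged cargo, was at 11.35, 11.29 and 11.36 with vehicle and at 11.62, 11.62 and 11.65 with purmorphamine. Its rise of 0.30 (adjusted p = 0.00891) was the smallest of the 5 receptors. Bnip3, an outer mitochondrial membrane protein that recruits LC3 to mitochondria and is known as a target of hypoxia signalling, gave 9.30, 9.32 and 9.17 and then 9.77, 9.73 and 9.71. Vehicle replicate 3 was the lowest control well of Bnip3, the groups did not overlap, and the rise was 0.47 (adjusted p = 0.00300).

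The mean over the 5 receptors, taken relative to their vehicle mean, was -0.02 to 0.02 on the vehicle arrays and 0.47 to 0.49 on the purmorphamine arrays. Receptor calls were kept in each of the 6 fits that left 1 array out, with adjusted p from 0.00260 for Sqstm1 to 0.0375 for Tax1bp1. Without both arrays numbered 3, the other 4 were called and Tax1bp1 was not (adjusted p = 0.0837). Related receptors were set against each other on the same arrays. The difference of Sqstm1 was larger than that of Nbr1 by 0.23 (95% interval 0.07 to 0.39), and that of Calcoco1 larger than that of Tax1bp1 by 0.19 (95% interval 0.04 to 0.34). Most of the 16 pairs of related genes set side by side in this way hold a gene already called as raised, so the values and their unadjusted intervals are a description with no test. An exact permutation of 3 against 3 arrays cannot go below p = 0.10.

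**Figure D2:**
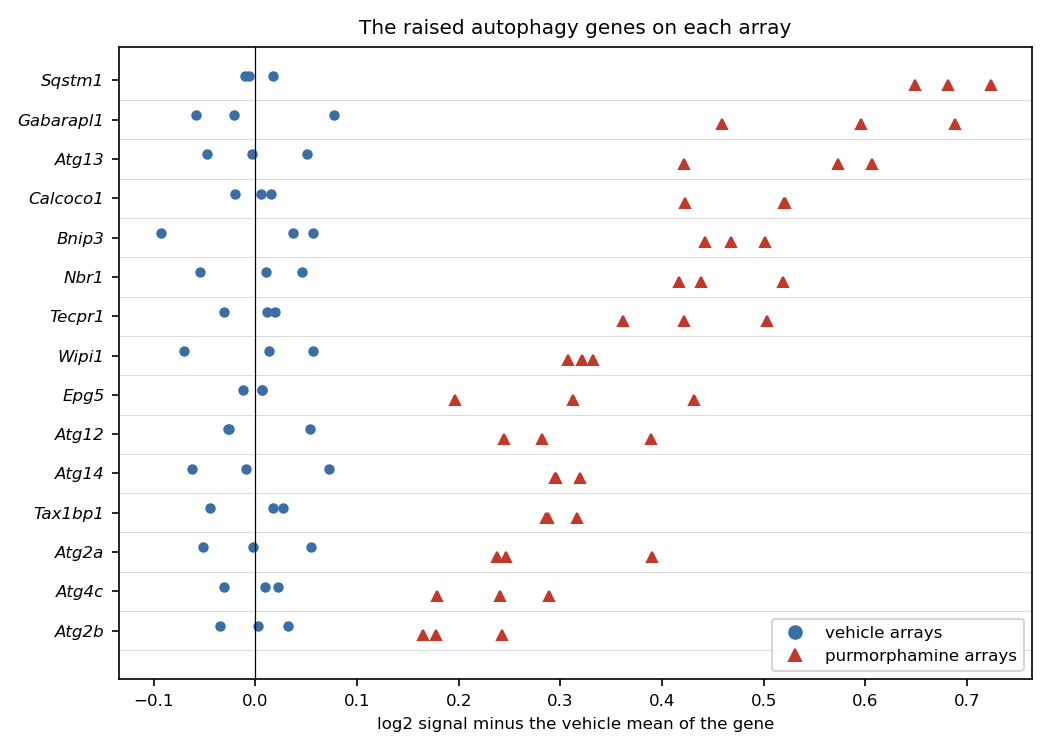
Log2 signal of the 15 raised genes on each array, minus the gene's vehicle mean (x axis), with vehicle arrays as circles and purmorphamine arrays as triangles. In every gene the 3 triangles lie to the right of the 3 circles, furthest for Sqstm1 and least for Atg2b.

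Promoter windows, from RefSeq with build GRCm38.p6, were available for 34 of the 41 measured genes and run from 250 bases before to 50 after each annotated start. They were searched on both strands for the E-box CACGTG, which Tfeb and other basic helix-loop-helix factors bind, its longer form TCACGTGA, which contains it, the antioxidant response element core TGACNNNGC of Nrf2, and TGATGNAA, a form of the element bound by CHOP and ATF4. Of 13 raised genes with a window, 2 held CACGTG (Atg14 and Bnip3) and 2 held TGACNNNGC (Atg13 and Tax1bp1). Of 21 genes that did not pass, 4 held CACGTG (Atg3, Atg5, Atg7 and Rubcn) and 3 held TGACNNNGC (Map1lc3b, Ulk2 and Vmp1). Over all 27025 genes with a window these letters occurred in 8.09% and 14.0%. TCACGTGA was found in Atg3 only, against 1.12% of all genes, and TGATGNAA in no member, against 4.51%. The windows of the members had a median GC content of 61.7%, against 52.7% for all windows. A match describes these letters and not a bound site, and no match says only that the letters are not in this window.

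The windows of the raised genes with a match, and that of Sqstm1, which rose most, are shown from 250 bases before to 10 after the start, 5′ to 3′ on the gene's strand, with matches in capitals. They lie at chr11:50210811-50211070, minus strand (Sqstm1), chr7:138909497-138909756, minus strand (Bnip3), chr6:52713915-52714174, plus strand (Tax1bp1), chr14:47568425-47568684, minus strand (Atg14) and chr2:91710583-91710842, minus strand (Atg13). The Sqstm1 window holds none of the 4 motifs. The E-box of Bnip3 begins at position -108 from the start, and that of Atg14 spans the start itself. In Tax1bp1 and Atg13 the capitals mark the antioxidant element core, on the opposite strand in Atg13.
Sqstm1: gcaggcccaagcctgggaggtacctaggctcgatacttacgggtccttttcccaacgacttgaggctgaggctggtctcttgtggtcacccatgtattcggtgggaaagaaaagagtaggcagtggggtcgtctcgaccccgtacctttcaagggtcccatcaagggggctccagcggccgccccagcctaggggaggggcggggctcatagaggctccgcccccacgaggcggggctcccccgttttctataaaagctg
Bnip3: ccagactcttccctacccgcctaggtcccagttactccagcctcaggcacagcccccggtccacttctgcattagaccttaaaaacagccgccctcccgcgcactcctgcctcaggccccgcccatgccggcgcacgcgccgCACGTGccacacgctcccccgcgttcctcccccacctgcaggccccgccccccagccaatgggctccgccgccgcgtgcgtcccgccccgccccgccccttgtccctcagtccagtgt
Tax1bp1: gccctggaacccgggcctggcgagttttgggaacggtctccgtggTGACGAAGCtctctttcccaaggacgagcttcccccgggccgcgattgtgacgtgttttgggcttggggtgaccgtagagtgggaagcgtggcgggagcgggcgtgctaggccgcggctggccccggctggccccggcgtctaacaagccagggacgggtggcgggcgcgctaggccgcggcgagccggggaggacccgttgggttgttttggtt
Atg14: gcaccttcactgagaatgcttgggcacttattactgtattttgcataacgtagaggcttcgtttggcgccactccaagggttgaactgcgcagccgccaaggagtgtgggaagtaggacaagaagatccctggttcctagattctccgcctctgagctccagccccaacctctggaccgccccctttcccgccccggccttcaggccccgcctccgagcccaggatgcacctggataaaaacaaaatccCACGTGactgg
Atg13: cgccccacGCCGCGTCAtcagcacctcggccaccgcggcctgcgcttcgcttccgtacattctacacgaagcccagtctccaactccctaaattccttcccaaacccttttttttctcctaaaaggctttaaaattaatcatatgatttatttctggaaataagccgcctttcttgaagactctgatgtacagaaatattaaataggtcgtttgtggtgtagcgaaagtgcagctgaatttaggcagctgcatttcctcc

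Of 12 initiation genes 2 rose, 1 in each complex. Atg13, the regulatory subunit through which mTORC1 controls the ULK1 complex, was at 8.85, 8.94 and 8.89 on the vehicle arrays and at 9.47, 9.50 and 9.32 on the purmorphamine arrays. The groups were well apart, with purmorphamine replicate 3 the lowest treated well, and Atg13 rose by 0.53, or 1.45-fold (SE 0.07, adjusted p = 0.00282). Its partner Atg101, which stabilises Atg13, went from 8.72, 8.68 and 8.63 to 8.85, 8.90 and 8.85. Those groups did not overlap either, yet the difference of 0.19 missed the threshold (adjusted p = 0.0502). The scaffold gene Rb1cc1, which encodes FIP200, differed by 0.21 (adjusted p = 0.0839), and the kinase genes Ulk1 and Ulk2 by 0.13 and 0.03 (adjusted p = 0.169 and 0.721). The difference of Atg13 was larger than that of Atg101 by 0.34 (95% interval 0.17 to 0.52), with the arrays of the groups apart. For Ulk1 against Ulk2 the value was 0.10 (95% interval -0.01 to 0.20), an interval that includes 0.

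In the VPS34 complex the call was that of Atg14, the subunit that directs the lipid kinase to sites of autophagosome formation. Atg14 read 7.69, 7.56 and 7.61 with vehicle and 7.94, 7.91 and 7.91 with purmorphamine, and rose by 0.30 (SE 0.06, adjusted p = 0.0123). Treated wells were above all control wells and close to each other. Uvrag competes with Atg14 for a place in this complex and directs it to endosomes. It read 10.56, 10.61 and 10.66 with vehicle and 10.45, 10.47 and 10.42 with purmorphamine, lower in every treated well, but its difference of -0.17 did not pass (adjusted p = 0.0851). The log2 ratio of Atg14 to Uvrag was higher in every treated well, by 0.47 (95% interval 0.29 to 0.65). Uvrag passed the test under 3 of the alternative settings and with an adjusted p under 0.1, as given in the closing section.

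The other 5 genes of the VPS34 complex did not pass. Becn1, which encodes the scaffold Beclin 1, was at 9.45, 9.48 and 9.45 with vehicle and 9.42, 9.46 and 9.43 with purmorphamine, a difference of -0.02 (95% interval -0.13 to 0.09). The catalytic subunit gene Pik3c3 differed by 0.09 (-0.04 to 0.22) and the pseudokinase subunit gene Pik3r4 by 0.13 (0.02 to 0.25). Ambra1, a Beclin 1 partner, differed by 0.02 (-0.10 to 0.13) and Rubcn, an inhibitor of the complex, by -0.09 (-0.24 to 0.06). Changes above 0.25 or below -0.24 lie outside all 5 intervals.

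Genes of membrane supply and expansion rose in 3 of 6 cases, with positive differences in all 6. Wipi1, which binds the lipid made by VPS34, was at 9.48, 9.35 and 9.44 with vehicle and at 9.73, 9.74 and 9.76 with purmorphamine. It rose by 0.32 (SE 0.05, adjusted p = 0.00947), and the treated wells were nearly equal. Its paralog Wipi2, which recruits Atg16l1, differed by 0.17 (adjusted p = 0.0862). Atg2a and Atg2b encode the channels that carry lipids from the endoplasmic reticulum into the growing membrane. Atg2a read 8.69, 8.74 and 8.79 and then 8.98, 9.13 and 8.98, with purmorphamine replicate 2 the highest, and Atg2b read 8.80, 8.77 and 8.83 and then 9.04, 8.97 and 8.98. They rose by 0.29 and 0.20 (adjusted p = 0.0249 and 0.0488). The lipid scramblase genes Atg9a (0.13, adjusted p = 0.290) and Vmp1 (0.04, adjusted p = 0.726) did not pass. Intervals of the ratio included 0 for Wipi1 to Wipi2, 0.15 (95% interval -0.02 to 0.31), and for Atg2a to Atg2b, 0.10 (95% interval -0.10 to 0.30).

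Of 11 conjugation enzymes and partners 2 rose. Atg12, the ubiquitin-like protein joined to Atg5, was at 9.51, 9.59 and 9.51 on the vehicle arrays and at 9.92, 9.82 and 9.78 on the purmorphamine arrays, and rose by 0.30 (SE 0.06, adjusted p = 0.0168). Treated wells were all above control wells, with purmorphamine replicate 1 the highest. Atg5 itself read 9.76, 9.81 and 9.83 and 9.84, 9.71 and 9.80, overlapping groups with a difference of -0.02 (95% interval -0.15 to 0.11). The difference of Atg12 was larger than that of Atg5 by 0.33 (95% interval 0.19 to 0.46), with the groups of arrays apart. The activating enzyme gene Atg7 differed by 0.13 and the conjugating enzyme gene Atg10, which acts on Atg12, by 0.18. In both, treated arrays lay above the controls, and neither passed (adjusted p = 0.115 and 0.0701). Atg3, which transfers ATG8 proteins to lipid, differed by -0.02 (-0.14 to 0.09), Atg16l1, which places the conjugation complex on the membrane, by -0.01 (-0.13 to 0.11) and Atg16l2 by 0.08 (-0.05 to 0.21).

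Atg4 proteases trim ATG8 proteins before conjugation and release them afterwards. Of the 4 genes Atg4c rose by 0.24, from 9.31, 9.30 and 9.26 with vehicle to 9.47, 9.58 and 9.53 with purmorphamine (adjusted p = 0.0282). The others overlapped between groups: Atg4a differed by 0.07, Atg4b, the main LC3 protease, by -0.04 and Atg4d by -0.11 (adjusted p from 0.452 to 0.727). The difference of Atg4c was larger than that of Atg4b by 0.28 (95% interval 0.09 to 0.47) and than that of Atg4d by 0.35 (95% interval 0.10 to 0.59). Against Atg4a the value of 0.17 (95% interval -0.06 to 0.40) has an interval that includes 0.

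Among the 5 measured ATG8 genes 1 rose. Gabarapl1, a GABARAP family member known as a transcriptional target of FoxO factors, was at 10.16, 10.03 and 10.07 on the vehicle arrays and 10.78, 10.55 and 10.68 on the purmorphamine arrays. It rose by 0.58 (SE 0.07, adjusted p = 0.00312), the largest rise after Sqstm1. Without both arrays numbered 3 its difference of 0.56 missed the threshold (adjusted p = 0.0579). Map1lc3b, which encodes the LC3 protein that is most used as a marker of autophagosomes, read 12.10, 11.95 and 11.87 and 11.98, 12.09 and 11.97. Those groups overlapped, with a difference of 0.05 (95% interval -0.13 to 0.22). Map1lc3a had 7.96, 7.79 and 8.03 and 8.31, 8.17 and 7.96, the widest spread of any member, and a difference of 0.22 (-0.03 to 0.47, adjusted p = 0.237).

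Gabarap, from 12.54, 12.54 and 12.50 to 12.70, 12.69 and 12.64, had groups that did not overlap, but its difference of 0.15 did not pass (adjusted p = 0.101). It was the only member with 2 probe sets, and the dimmer one differed by 0.20. Gabarapl2, which also acts in Golgi transport, differed by 0.01 (-0.16 to 0.18). Set against each of the other 4 genes on the same arrays, Gabarapl1 had a difference larger by 0.43 (95% interval 0.21 to 0.66) than that of Gabarap and by 0.57 (95% interval 0.30 to 0.83) than that of Gabarapl2. Against Map1lc3b the value was 0.54 (95% interval 0.23 to 0.84) and against Map1lc3a 0.36 (95% interval 0.03 to 0.70). In all 4 ratios the purmorphamine arrays lay above the vehicle arrays, which describes the call of Gabarapl1 against its relatives and is no separate test. ATG8 genes are similar in sequence, and probes may bind transcripts of more than 1 of them.

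**Figure D3:**
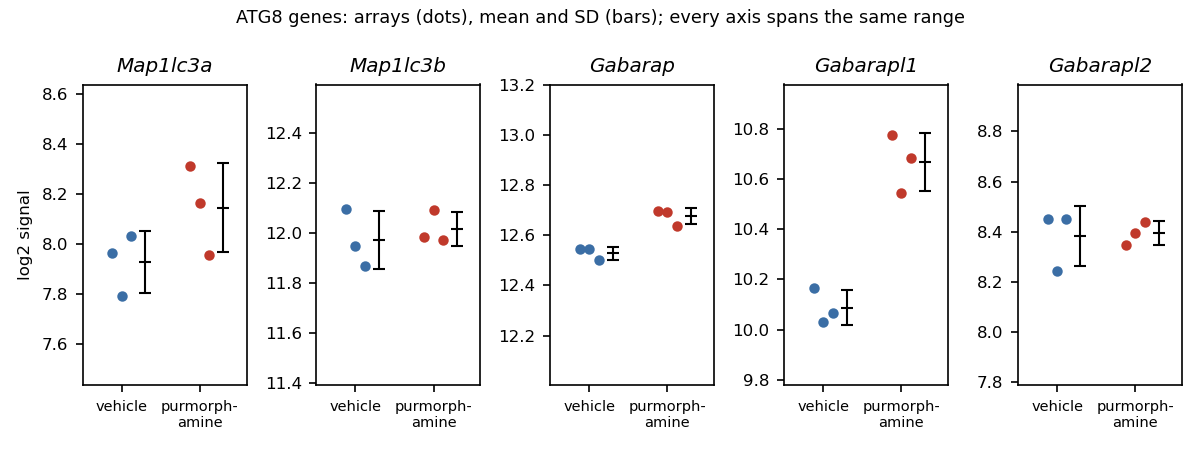
Log2 signal of the 5 ATG8 genes on each array (dots), with the mean and SD of each group of 3 as bars; each panel has its own origin but spans the same range. Gabarapl1 shows groups that lie apart by 0.58, and Map1lc3b and Gabarapl2 show overlapping groups.

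Both members of the fusion class, Tecpr1 and Epg5, rose; 15 further fusion genes, of which 1 rose, are described with the other pathway lists. Tecpr1, which tethers autophagosomes to lysosomal membranes, was at 9.04, 8.99 and 9.03 with vehicle and at 9.52, 9.44 and 9.38 with purmorphamine, and rose by 0.43 (SE 0.06, adjusted p = 0.00355). Epg5, a Rab7 effector needed for fusion, was at 8.27, 8.27 and 8.25 with vehicle and at 8.57, 8.46 and 8.69 with purmorphamine, and rose by 0.31 (SE 0.07, adjusted p = 0.0254). The vehicle wells of Epg5 were close together (SD 0.01), while its treated wells spread more (SD 0.12), with purmorphamine replicate 2 the lowest.

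Not all 15 calls were equally firm. With each array left out in turn, 10 genes were called in all 6 fits: Sqstm1, Gabarapl1, Atg13, Calcoco1, Bnip3, Nbr1, Tecpr1, Wipi1, Atg14 and Tax1bp1. Atg2b was called in 0 of 6 (adjusted p from 0.0819 to 0.152), Atg4c in 1 (0.0498 to 0.0889), Epg5 in 1 (0.0203 to 0.0786), Atg2a in 2 (0.0479 to 0.0803) and Atg12 in 3 (0.0337 to 0.0592). In these fits 10 to 13 members rose, beside 4.04% to 5.27% of all genes. Against 1593 with all arrays, the genes that rose over the whole table were 897, 1168 and 1008 when purmorphamine replicates 1, 2 and 3 were left out in turn. They were 1062, 957 and 1025 when vehicle replicates 1, 2 and 3 were. Genes that fell, 1588 in all, were from 1057 when purmorphamine replicate 3 was left out to 1206 when purmorphamine replicate 2 was.

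**Figure D4:**
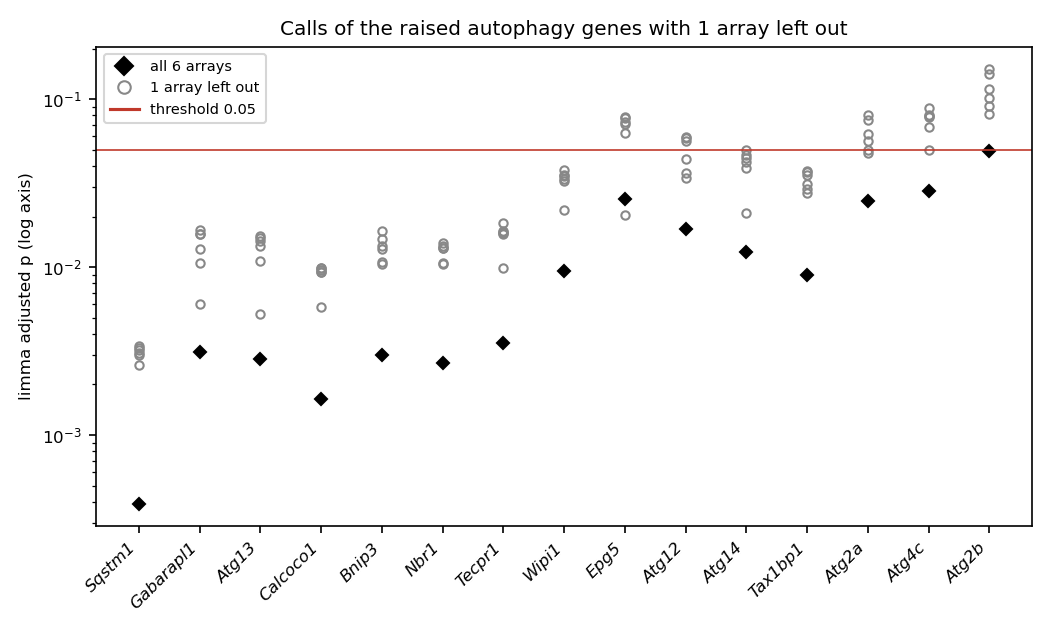
Limma adjusted p (log axis) of the 15 raised genes with all 6 arrays (diamonds) and with 1 array left out (open circles); the red line is the threshold of 0.05. For 10 genes all circles lie below the line, and for Atg2b all 6 lie above it.

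Other genes of the pathway were taken from 3 lists. Of 23 measured further autophagosome and receptor genes 5 rose and 1 fell, with a median of 0.06. Of 15 genes of fusion with lysosomes 1 rose and 0 fell by limma, with a median of 0.01. At an unadjusted p under 0.05 these fusion genes were 2 upward and 4 downward, with no share of all genes given beside them. Of 25 mTORC1 and AMPK regulators 3 rose and 2 fell, with a median of 0.02. In all 63 genes, 9 rose (14.3%) and 3 fell, beside 7.18% and 7.16% of all genes, and the share of the fusion list (6.67%) was near that background. Trp53inp1, a stress-induced protein that binds LC3, rose by 0.61, from 9.57, 9.52 and 9.57 to 10.17, 10.11 and 10.21 (adjusted p = 7.26e-04). Pink1, the kinase that marks damaged mitochondria, rose by 0.47 (adjusted p = 0.00307) and Ccpg1, a receptor for endoplasmic reticulum, by 0.44 (adjusted p = 0.00411). In these 3 genes every treated array lay above every control array.

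Calcoco2 fell by 0.29 (adjusted p = 0.0117) but was dim, at 5.41, 5.33 and 5.41 with vehicle and 5.07, 5.10 and 5.11 with purmorphamine, close to the lower quartiles of the arrays (5.03 to 5.08). It encodes NDP52, a receptor related to Tax1bp1 and Calcoco1. With an offset of 50 its difference shrank to -0.12, and it was not called with a variance trend and robust fit (adjusted p = 0.0568) or without both arrays numbered 3 (adjusted p = 0.102). The remaining calls of that list, chosen after their values were seen, were rises of Wdr45, a relative of the Wipi genes (0.30), and of Ncoa4, the receptor for ferritin (0.24). They were called in 2 and 3 of the 6 fits with 1 array left out. Receptors on that list that did not pass, also named after their values were seen, were Retreg1 (0.07), Tex264 (0.11) and Rtn3 (-0.04) for endoplasmic reticulum. Those for mitochondria were Fundc1 (0.21), Fkbp8 (-0.09), Bcl2l13 (0.03) and Phb2 (-0.16), and those for other cargo were Stbd1 (-0.09) and Tollip (-0.05). Vps41, of the HOPS tethering complex, rose by 0.21 (adjusted p = 0.0460) and was not called in any of these 6 fits (adjusted p from 0.0570 to 0.136). The other HOPS genes, named after their values were seen, differed by -0.19 (Vps33a) to 0.06 (Vps39) and did not pass. All treated arrays lay below the controls for Vps16 and Vps33a and above them for Vps39, as for Vps41. Each of these 2 patterns held for 17.1% of all genes.

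Among regulators of initiation, the sestrin genes, whose proteins restrain mTORC1 through its amino acid input, moved in opposite directions. Sesn3 rose by 0.67, from 8.83, 8.80 and 8.68 to 9.47, 9.40 and 9.45 (adjusted p = 8.02e-04), and Sesn2, a target of ATF4, rose by 0.52 (adjusted p = 0.00153). Sesn1, a target of p53, fell by 0.71, from 8.69, 8.56 and 8.86 to 8.11, 7.88 and 8.00 (adjusted p = 0.00377). In each of the 3 genes the arrays of the groups did not overlap. Ddit4, which encodes the mTORC1 inhibitor REDD1, rose by 0.52 (adjusted p = 0.00426). Deptor, an inhibitor within the mTOR complexes and chosen after its value was seen, fell by 0.31 (adjusted p = 0.0116). The kinase genes Mtor (0.02), Prkaa1 (0.17) and Prkaa2 (-0.05) did not pass, and were likewise chosen after their values were seen.

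**Figure D5:**
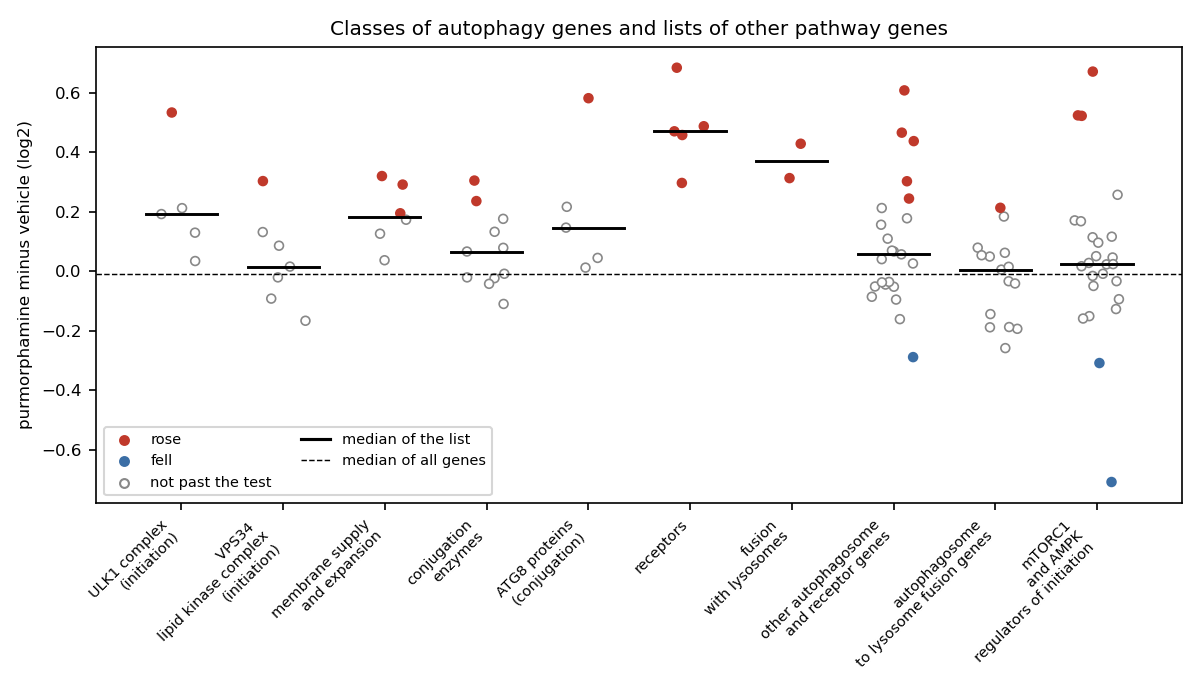
Differences (log2, y axis) of each measured gene in the 7 classes of members and the 3 lists of other pathway genes; filled red and blue points rose and fell, and bars are medians. All 5 receptor points are filled red at 0.30 to 0.68, while the bars of the 3 other lists lie at 0.01 to 0.06, near the dashed median of all genes.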

How the data were processed

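RNA of 6 wells was measured on 1 Affymetrix array each. The tables as deposited hold log2 signal, 1 value per probe set and array. The submitters' processing notes list oligo, RMA and limma without their versions. RMA gives all arrays nearly the same distribution, which hides any shift shared by the whole transcriptome, and compresses changes of dim genes. Of 41345 probe sets 23521 had 1 gene symbol in the platform annotation, 1814 had several and 16010 had none. Where a gene had several (1082 genes) the brightest was kept, which left 22180 genes. Entrez identifiers of all 41 measured members matched RefSeq (GRCm38.p6) under the same symbol.

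Purmorphamine was compared with vehicle by lmFit and eBayes of limma 3.58.1 (R 4.3.3) without a block. Tests were two-sided and adjusted by Benjamini-Hochberg over the 22180 genes. The rule for named genes covers members by class, at most the 4 called genes with the smallest p of each pathway list, Hedgehog targets and markers; any other gene is marked in the text as chosen after its values were seen. Members and lists were chosen with earlier results of these data known. Pairs of related genes are described by their log2 ratios, with intervals from the spread over arrays. The fit was tested on simulated data. Arrays have no depth; their number limits precision (median SE 0.07). Plots were drawn with matplotlib 3.10.9 in Python 3.11.15.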

Additional observations from a re-analysis of the deposited data

How the results depend on the processing

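Alternatives run were median centring, quantile normalization, an offset of 50, leaving out the dimmest genes, the mean of probe sets and every probe set as its own test. Further ones were a variance trend with robust fit, array weights, a replicate block and each array left out. Leaving out both arrays numbered 3 was chosen after seeing the data. The 15 raised members kept a positive difference under all of these, but most could not have given another sign. In each of the 15 genes every purmorphamine array lay above every vehicle array, so leaving arrays out cannot turn the difference negative. Leaving out dim genes, both probe set settings, the trend and robust fit and the block left the 15 differences as they were, at 0.20 to 0.68. Members that rose numbered 14 to 22 over the planned settings with all arrays and no block, with 6.26% of all genes rising after median centring (14 members), 10.3% with the offset (22), 15.2% without the dimmest genes (21) and 10.9% with trend and robust (21). Atg2b lost its call after median centring (adjusted p = 0.0727) and with every probe set tested (0.0528). Uvrag fell, as the 1 falling member, with the offset, without the dimmest genes, with the trend and robust fit and at an adjusted p under 0.1. Pathway genes that rose were 14 and those that fell 7 with the offset, and also with trend and robust; 5 fell without the dimmest genes and at an adjusted p under 0.1. Over all genes 2416 rose with trend and robust. With 1 array left out, 897 to 1168 genes rose and 1057 to 1206 fell. With both arrays numbered 3 left out, so with fewer samples, 6 members, 5 pathway genes and 440 genes in all rose, and 1 pathway gene and 511 genes in all fell. Differences near 0 changed sign in 4 members with no call: Atg5 (up to 0.02), Atg16l1 (up to 0.017), Map1lc3b (down to -0.007) and Gabarapl2 (down to -0.06). Causes of these changes were not tested, and some of these settings hold fewer arrays or genes.

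In deviations from their group means, same-numbered arrays went together at r = 0.11, 0.02 and 0.10 across genes, and differently numbered ones at -0.09 to -0.01. Deviations sum to 0 within a group, so these values depend on each other. By these deviations all 6 arrays correlated best with their own number in the other group. Full signals did not show this for every array. Purmorphamine 2 was closest to vehicle 1 among the vehicle arrays (r = 0.993089, against 0.992772 with vehicle 2). Both arrays numbered 3 stood apart on the second principal component. The labels name no pairs, so the main fit has no block, and what the numbers share is not known. With the replicate block 11 members and 5.38% of all genes rose, and Atg2a, Atg2b, Atg4c and Epg5 were not called. Arrays limit what is seen: signals close to background are compressed, and there are 3 wells per group.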
